A study of Homo sapiens with 6 samples.

Results

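The autophagy core machinery was taken as the protein-coding genes whose symbol is ATG followed by a number, together with a fixed set of named genes of the same pathway, from the ULK kinases to the factors that fuse autophagosomes with lysosomes. The rule found 42 genes among the 21776 genes of the count table and used no measured value. RNA sequencing compared an oral squamous cell carcinoma line under hypoxia (1% O2 with CO2 and nitrogen) with the same line under normoxia (air with CO2), both for 12 h, with 3 libraries per condition. All libraries carry the label SCC25 and the genotype wild type, grown in medium with serum, while a legend of the study names SCC9; both are established lines from oral squamous cell carcinoma. Total counts ranged from 29637189 to 37278703 per library. The labels do not say whether the 3 libraries of a condition came from separate cultures, so that p-values measure the spread between these libraries only.

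Autophagy encloses cytoplasm in a double membrane, the autophagosome, and delivers it to the lysosome for breakdown. The ULK complex starts the process, a class III phosphatidylinositol 3-kinase marks the membrane, ATG9 vesicles and lipid transfer proteins enlarge it, and a conjugation system attaches small ATG8 proteins to it, which then hold the cargo receptors. Low oxygen and starvation are textbook inducers of the pathway, and mRNA levels do not measure how much material passes through it.

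Under hypoxia the autophagy genes moved in both directions. ULK1, the kinase that starts autophagy, rose 12.5-fold, and ATG9B, a paralog of the lipid scramblase ATG9A, rose at least 19.7-fold from next to nothing. The cargo receptors NBR1, CALCOCO2 and TAX1BP1, the fusion factors STX17 and EPG5 and 6 of the 9 ATG9 and lipid transfer genes rose, whereas 6 of the 11 genes of the conjugation machinery and 4 of the 7 genes of the PI3-kinase complexes fell. Beside these counts, 39.2% of all tested genes rose and 38.5% fell. The groups are small, and differences between them were not tested. Of the 6 that rose, ATG9B passed the filter on low counts only through its hypoxic counts. The call of WIPI2, another of the 6, was lost when any library except normoxia replicate 3 was left out. Among the genes that fell, ATG4D, BECN1 and RUBCN share exons with a more abundant gene that also fell. ATG3, which hands ATG8 proteins to their lipid, and ATG101, a subunit of the ULK complex, had the largest decreases of the 42 genes, with log2-fold changes of -1.20 and -1.01. The directions hold for the genes the rule took. Outside it, the receptor SQSTM1 fell, and of 14 further fusion genes 3 rose and 7 fell. When each library had to hold 10 counts or more, 5 of 13 rose and 6 fell.

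All 42 genes passed edgeR's filter on low counts and were tested with the other genes of the table. At an adjusted p under 0.05 by edgeR's quasi-likelihood test, 21 of the 42 (50.0%) were higher under hypoxia, beside 39.2% of the 14255 tested genes, and 12 (28.6%) were lower, beside 38.5%. In either direction 33 passed, where 77.8% of all tested genes did. The remaining 9 did not pass. The libraries of the conditions did not overlap for 34 of the 42 genes, beside 80.5% of all tested genes. The median log2-fold change was 0.19 over the 42 genes and 0.023 over all tested genes, but 0.15 and 0.2 without the filter on low counts, so that the order of these medians depends on the filter. In size, the changes were mostly small: 20 genes moved by less than 0.5 on the log2 scale, 15 by 0.5 to 1, and 7 (16.7%) by 1 or more, beside 30.8% of all tested genes. Of these 7 genes, ULK1, ATG9B, TFEB, ATG16L2 and WDR45 rose and ATG3 and ATG101 fell, where 19.9% of all tested genes rose and 10.5% fell by as much. In these bulk libraries, fewer cells of a type and less RNA per cell cannot be told apart.

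**Figure D1:**
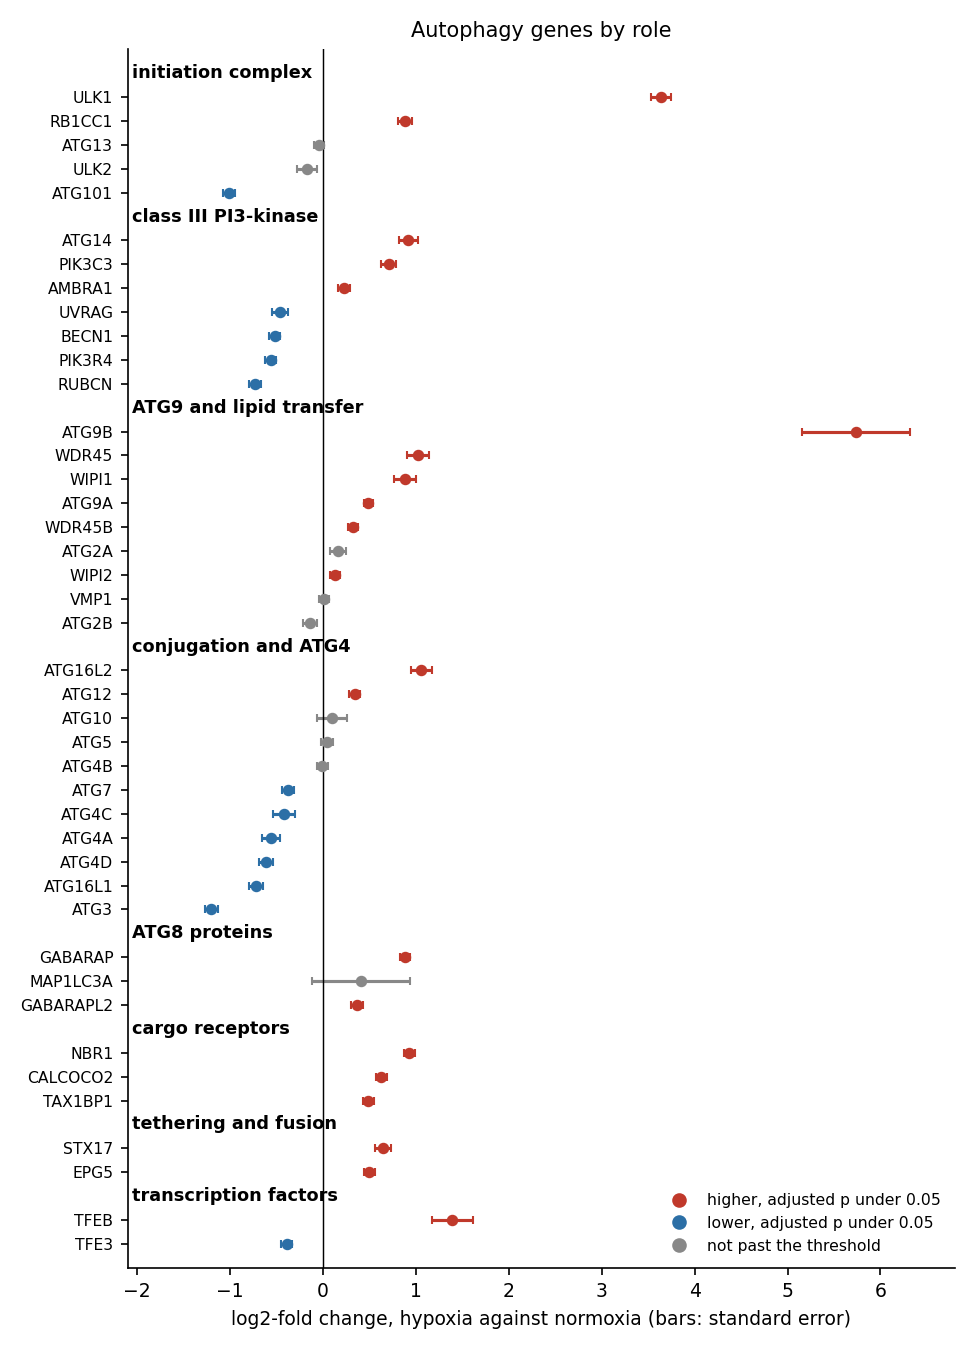
Log2-fold change of each of the 42 autophagy genes, hypoxia against normoxia, grouped by step of the pathway (x axis: log2-fold change from edgeR, bars: standard error, 3 libraries per condition; red: higher, blue: lower, grey: not past an adjusted p of 0.05). ULK1 at 3.64 stands far to the right, and the conjugation genes run from 1.06 for ATG16L2 to -1.20 for ATG3. The point of ATG9B depends on the prior count of the fit because its normoxic counts were 0 to 2.

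The libraries were first checked against their labels. All 15 genes of a list of hypoxia response genes were higher under hypoxia. VEGFA, the angiogenic growth factor, had 1280 ± 65.7 CPM (counts per 1000000 of the TMM-normalised library total, SD, n = 3) under hypoxia and 184 ± 18.7 under normoxia, and CA9, a carbonic anhydrase induced by low oxygen, had 277 ± 15.4 and 42.4 ± 22.0. In normoxia replicate 3, several of these genes stood above the other normoxic libraries: CA9 had 67.67 CPM there beside 32.19 and 27.29, and NDRG1 had 408.9 beside 163.3 and 140.4. It was the highest normoxic library for 13 of the 15 genes. Among the autophagy genes it was the highest normoxic library for 10 of the 20 that rose with measurable normoxic counts (50.0%, beside 58.6% of all genes that rose), ULK1 and TFEB included. It was the lowest for 7 of the 12 that fell (58.3%, beside 62.4% of all genes that fell). Without it, all 33 calls remained, 22 autophagy genes were higher and 12 lower, and the log2-fold changes were 3.82 for ULK1 and 1.6 for TFEB, beside 3.64 and 1.39 with it.

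The squamous markers KRT5 (3494 to 4424 counts per library), TP63, CDH1, EPCAM and SFN were present, and KRT14, a basal keratin, had at most 1 count in any library. Of the 8 tested genes of the squamous list, 3 (37.5%) rose and 4 (50.0%) fell by edgeR's quasi-likelihood test. Beside them, 39.2% of all tested genes rose and 38.5% fell. The adhesion genes CDH1 (1.35) and DSG3 (1.35) and the keratin KRT17 (1.06) rose, while the keratin KRT6A fell from 16.5 ± 3.86 to 0.951 ± 0.491 CPM (log2-fold change -4.12), with smaller decreases of SFN (-0.80), EPCAM (-0.35) and KRT5 (-0.18). TP63 did not pass (0.12, edgeR adjusted p = 0.358). The part of these changes in the autophagy results was not tested.

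Lists of markers of other cell types had low sums, and most of their defining genes were at a few counts. The summed fibroblast list was 22.1, 18.7 and 17.3 CPM under hypoxia and 4.03, 3.18 and 5.64 under normoxia, nearly all of it COL1A1, and the defining genes COL3A1 and DCN had at most 2 and 4 counts. The leukocyte list summed to 6.52, 5.91 and 6.07 CPM and to 0.941, 0.874 and 1.69, nearly all of it CD14, with PTPRC at no more than 2 counts and CD3E and LYZ at no more than 1. The endothelial list summed to 1.67, 1.26 and 1.51 CPM and to 0.296, 0.315 and 0.744, with CDH5 as its top gene. These sums moved with hypoxia, and their part in the autophagy results was not tested.

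Promoter sequences were available in RefSeq (GRCh38.p14) for 35 of the 42 genes, as the 250 bases before the transcription start. They were searched on both strands for ACGTG or GCGTG, the core letters bound by hypoxia-inducible factors, and for CACGTG, the letters that TFEB, TFE3 and other basic helix-loop-helix factors bind. CACGTG reads ACGTG on each strand and therefore counts as 2 overlapping matches. The sequences below belong to the genes with the largest changes, ULK1 and ATG9B upward and ATG3 and ATG101 downward, and to ATG14, one of the CACGTG carriers. Capitals mark every match.
ULK1, chr12:131894372-131894621, plus strand: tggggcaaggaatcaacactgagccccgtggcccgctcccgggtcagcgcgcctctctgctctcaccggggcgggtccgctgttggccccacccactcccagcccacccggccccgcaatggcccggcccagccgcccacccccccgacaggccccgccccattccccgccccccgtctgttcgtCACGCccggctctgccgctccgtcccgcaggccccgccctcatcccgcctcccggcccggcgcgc
ATG9B, chr7:151024500-151024749, minus strand: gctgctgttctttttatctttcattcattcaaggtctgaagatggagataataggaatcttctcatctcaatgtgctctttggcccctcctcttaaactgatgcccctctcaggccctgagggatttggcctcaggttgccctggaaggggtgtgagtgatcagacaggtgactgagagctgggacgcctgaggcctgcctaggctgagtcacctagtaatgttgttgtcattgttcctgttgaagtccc
ATG3, chr3:112561963-112562212, minus strand: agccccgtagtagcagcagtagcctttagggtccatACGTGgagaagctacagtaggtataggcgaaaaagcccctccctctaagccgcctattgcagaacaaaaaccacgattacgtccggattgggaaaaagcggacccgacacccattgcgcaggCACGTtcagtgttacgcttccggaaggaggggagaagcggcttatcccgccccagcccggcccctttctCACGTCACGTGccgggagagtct
ATG101, chr12:52069728-52069977, plus strand: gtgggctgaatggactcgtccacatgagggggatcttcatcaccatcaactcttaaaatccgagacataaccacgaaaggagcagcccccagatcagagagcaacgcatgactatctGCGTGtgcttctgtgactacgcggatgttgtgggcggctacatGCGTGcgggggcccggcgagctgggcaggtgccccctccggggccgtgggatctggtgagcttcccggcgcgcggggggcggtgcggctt
ATG14, chr14:55411831-55412080, minus strand: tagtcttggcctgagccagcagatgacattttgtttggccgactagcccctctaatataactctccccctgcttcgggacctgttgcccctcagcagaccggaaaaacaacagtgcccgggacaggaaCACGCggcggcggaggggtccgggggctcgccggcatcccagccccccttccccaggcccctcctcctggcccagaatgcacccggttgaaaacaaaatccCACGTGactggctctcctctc

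Matches stood before genes of either direction. ULK1 held 1 match 65 bases before its start and ATG9B held none, while the falling genes ATG3 and ATG101 held 5 and 2. ACGTG or GCGTG stood in 22 of the 35 autophagy promoters (62.9%), beside 43.2% of 35116 promoters in all and 56.7% of the 11412 promoters of tested genes. It stood in 11 of 17 promoters of genes that rose, 6 of 10 of genes that fell and 5 of 8 of the rest. Differences between these groups were not tested. CACGTG was found for ATG14 and ATG3 (5.71%), beside 6.34% of all promoters and 8.68% of those of tested genes. A match is a match of letters and not a bound site.

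The initiation complex joins the kinase ULK1 or its paralog ULK2 to the scaffold RB1CC1 (also FIP200) and to the adaptors ATG13 and ATG101. Of these 5 genes, 2 rose, 1 fell and 2 did not pass. ULK1 (Entrez 8408) had 200.3, 216.2 and 200.1 CPM under hypoxia and 15.94, 12.55 and 20.92 under normoxia. Every hypoxic library lay far above every normoxic one, and the log2-fold change was 3.64 (SE 0.11, edgeR adjusted p = 3.75e-14). Per length, ULK1 stood 31st of the 42 genes under normoxia at 3.01 ± 0.793 FPKM (fragments per kilobase of gene, scaled to the library total, SD, n = 3) and 5th under hypoxia at 38.7 ± 2.25 FPKM.

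ULK2 did not follow its paralog, with 12.4 ± 1.41 CPM under hypoxia and 13.9 ± 0.761 under normoxia (log2-fold change -0.17, SE 0.11, edgeR adjusted p = 0.151). Within a library, the ratio of ULK1 to ULK2 in FPKM was 28.9 ± 2.72 under hypoxia and 2.03 ± 0.469 under normoxia (SD, n = 3). RB1CC1 rose by 0.88 (SE 0.075, edgeR adjusted p = 8.46e-09), from 35.9 ± 3.74 to 65.8 ± 4.01 CPM.

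The adaptors behaved differently from the kinase and the scaffold. ATG101 (Entrez 60673), which stabilises ATG13, had 29.21, 30.43 and 30.11 CPM under hypoxia and 63.45, 57.98 and 59.66 under normoxia. The hypoxic libraries lay close together and below all normoxic ones, with a log2-fold change of -1.01 (SE 0.063, edgeR adjusted p = 1.2e-10). ATG13 did not pass (65.2 ± 1.28 against 67.3 ± 0.528 CPM, log2-fold change -0.046, SE 0.054, edgeR adjusted p = 0.441). Per length, ULK1 lay below both adaptors under normoxia and above both under hypoxia. The FPKM ratio of ULK1 to ATG101 was 1.85 ± 0.0616 under hypoxia and 0.0735 ± 0.0188 under normoxia, and that of ULK1 to ATG13 was 3.79 ± 0.206 and 0.294 ± 0.0735. These ratios were chosen after the values had been seen and were not tested.

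**Figure D2:**
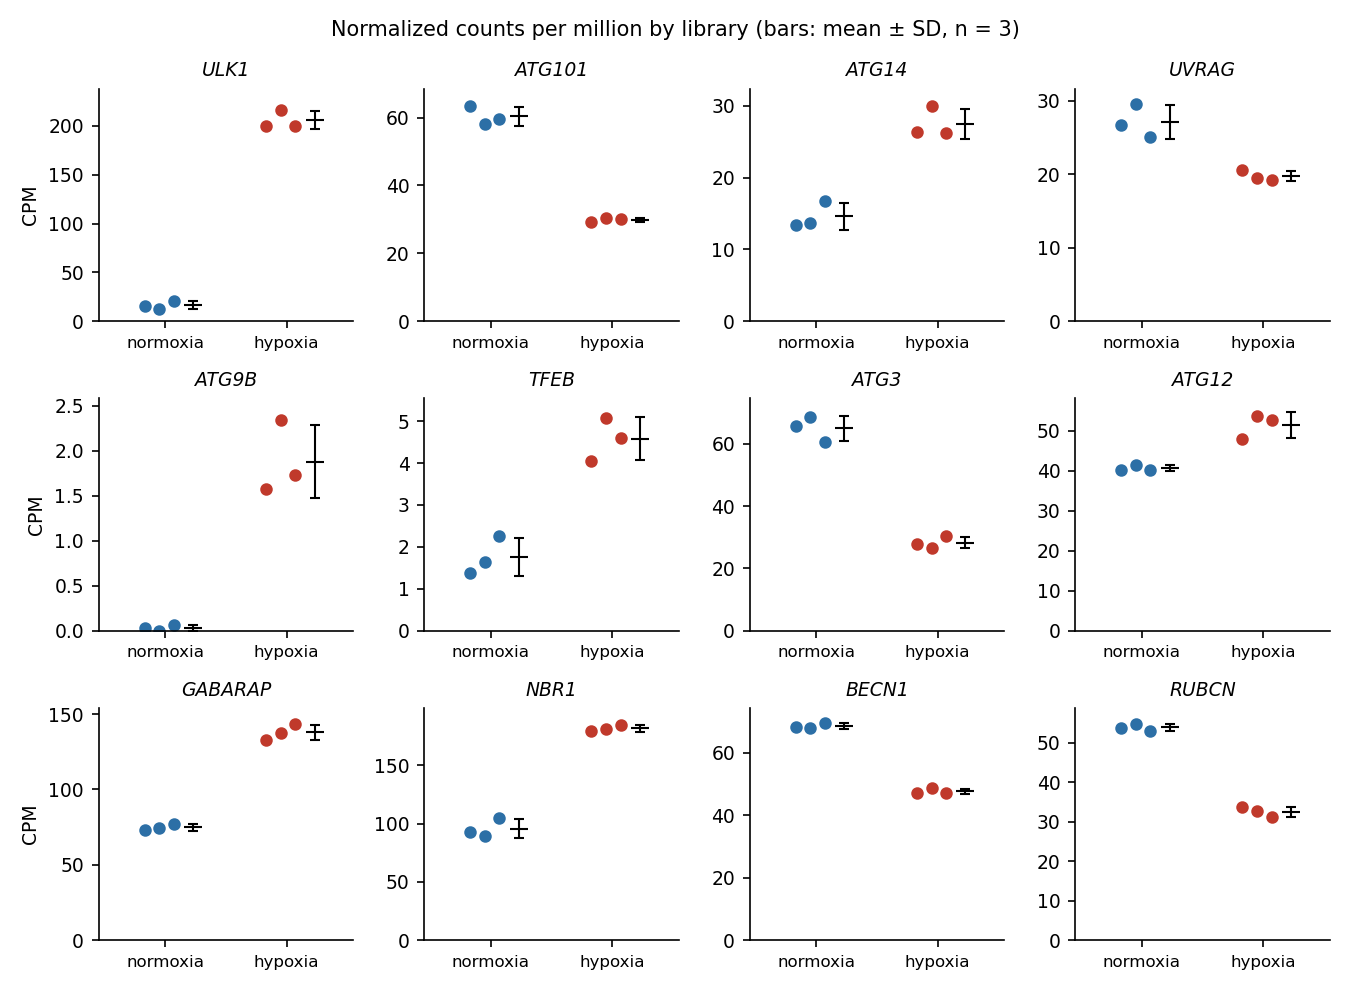
Normalised counts in CPM (y axis, from 0) of 12 autophagy genes in every library under normoxia (blue) and hypoxia (red), with mean ± SD (n = 3). The conditions are separate in all 12 panels, with ULK1 between 12.55 and 20.92 CPM in normoxia and between 200.1 and 216.2 in hypoxia.

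The class III PI3-kinase complexes make the lipid PI3P on the growing membrane. PIK3C3 (VPS34) is the kinase, PIK3R4 (VPS15) and BECN1 its core partners, and ATG14 or UVRAG a further subunit that sends the complex to autophagosomes or to endosomes. All 7 genes of the group passed the test, where 77.8% of all tested genes did. Of the 7, 3 (42.9%) were higher and 4 (57.1%) lower, beside 39.2% and 38.5% of all tested genes.

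ATG14 had 26.4, 29.95 and 26.26 CPM under hypoxia and 13.46, 13.63 and 16.8 under normoxia. It was higher in every hypoxic library, with a log2-fold change of 0.92 (SE 0.099, edgeR adjusted p = 1.76e-07). PIK3C3 rose by 0.71 (SE 0.081, edgeR adjusted p = 3.64e-07), from 31.7 ± 3.22 to 51.7 ± 4.62 CPM, and AMBRA1, a scaffold that binds BECN1, rose by 0.23 (SE 0.066, edgeR adjusted p = 0.004). UVRAG, the alternative to ATG14, had 20.57, 19.47 and 19.23 CPM under hypoxia and 26.76, 29.57 and 25.01 under normoxia. It was lower in every hypoxic library (log2-fold change -0.46, SE 0.084, edgeR adjusted p = 8.92e-05).

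The FPKM ratio of the alternative subunits ATG14 to UVRAG was 2.48 ± 0.231 under hypoxia and 0.967 ± 0.198 under normoxia. On the log2 scale of counts this ratio differed by 1.37 between the conditions (SE 0.18) without overlap. RUBCN (Rubicon), an inhibitor found in UVRAG complexes, had 33.6, 32.61 and 31.25 CPM under hypoxia and 53.8, 54.8 and 52.97 under normoxia. Its log2-fold change of -0.73 (SE 0.061, edgeR adjusted p = 6.89e-09) was the largest decrease of this group, and the FPKM ratio of ATG14 to RUBCN was 1.76 ± 0.139 and 0.566 ± 0.0813. Both ratios were chosen after the values had been seen and were not tested.

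The shared core subunits were lower under hypoxia while their kinase was higher. BECN1 (Beclin 1) had 47.26, 48.61 and 47.15 CPM under hypoxia and 68.31, 67.8 and 69.67 under normoxia, so that the conditions lay far apart for the small spread within them (log2-fold change -0.52, SE 0.056, edgeR adjusted p = 1.45e-07). PIK3R4 had 47.78, 43.34 and 43.42 CPM under hypoxia and 65.17, 67.1 and 65.44 under normoxia, again without overlap (log2-fold change -0.56, SE 0.06, edgeR adjusted p = 1.93e-07). In GENCODE v29, BECN1 shares 300 exonic bases with PSME3 on the opposite strand, a gene at 195 CPM on average with a log2-fold change of -1.64, and RUBCN shares 118 with FYTTD1 (-0.33). Whether the authors counted by strand is not given in the sources used here, so that part of these reads may belong to the neighbour.

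ATG9 proteins are lipid scramblases carried on vesicles, ATG2 proteins pass lipids to the new membrane, the WIPI proteins (WDR45 and WDR45B among them) read PI3P, and VMP1 is a scramblase of the endoplasmic reticulum. Of the 9 genes, 6 (66.7%) rose, none fell and 3 did not pass, beside 39.2% and 38.5% of all tested genes that rose and fell. ATG9B (Entrez 285973) had 48, 87 and 56 counts under hypoxia and 1, 0 and 2 under normoxia. Each normoxic library was at or under the floor of 3 counts, so that the increase is given as a bound of at least 19.7-fold (edgeR adjusted p = 7.16e-08). ATG9B passed the filter only through its hypoxic counts, so that a difference was built into its selection and its p and its place among the 21 add no support. ATG9B remained a minor form, at 0.434 ± 0.0994 FPKM under hypoxia beside 28.3 ± 0.496 FPKM for ATG9A. Its exons share 786 bases with NOS3 on the opposite strand (0.524 CPM on average, log2-fold change 1.83). NOS3 moved the same way, so that part of the ATG9B reads may belong to it.

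ATG9A rose by 0.49 (SE 0.052, edgeR adjusted p = 1.41e-07). Among the WIPI genes, the 2 low ones rose most. WDR45 (WIPI4) had 23.06, 20.7 and 20.28 CPM under hypoxia and 11.64, 8.387 and 11.53 under normoxia, so that every hypoxic library was higher (log2-fold change 1.02, SE 0.12, edgeR adjusted p = 4.04e-07). WIPI1 had 12.31, 11.16 and 11.13 CPM under hypoxia and 6.234, 6.885 and 5.611 under normoxia, also without overlap (log2-fold change 0.88, SE 0.12, edgeR adjusted p = 4.03e-06). WDR45 shares 757 exonic bases with PRAF2 on the same strand, a gene at 10.9 CPM on average with a log2-fold change of 0.7. WIPI1 shares 828 with ARSG on the opposite strand (3.757 CPM on average, log2-fold change 0.47). Both neighbours moved the same way, so that part of the WDR45 and WIPI1 reads may belong to them.

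The abundant WIPI genes moved less. WDR45B (WIPI3) rose by 0.32 (SE 0.055, edgeR adjusted p = 5.57e-05) and WIPI2, which recruits ATG16L1, by 0.13 (SE 0.052, edgeR adjusted p = 0.0351). The call of WIPI2 was the weakest of the 33 and was lost when any library except normoxia replicate 3 was left out (edgeR adjusted p = 0.0568 to 0.193). ATG2A (0.16, edgeR adjusted p = 0.102), ATG2B (-0.14, edgeR adjusted p = 0.0828) and VMP1 (0.014, edgeR adjusted p = 0.822) did not pass.

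In the conjugation machinery, ATG7 activates the ATG8 and ATG12 proteins, ATG3 and ATG10 conjugate them, ATG12 with ATG5 and ATG16L1 forms the complex that directs ATG8 proteins to the membrane, and ATG4 proteases prepare and recycle them. Of the 11 genes, 2 (18.2%) rose, 6 (54.5%) fell and 3 did not pass, beside 39.2% and 38.5% of all tested genes. ATG3 (Entrez 64422) had 27.84, 26.67 and 30.39 CPM under hypoxia and 65.65, 68.43 and 60.64 under normoxia. The conditions were separate by a wide margin, and the log2-fold change of -1.20 (SE 0.07, edgeR adjusted p = 5.2e-11) was the largest decrease among the 42 genes. ATG7, upstream of ATG3, fell by 0.38 (SE 0.065, edgeR adjusted p = 4.01e-05).

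ATG16L1 and its paralog ATG16L2 moved in opposite directions. ATG16L1 had 25.38, 24.52 and 29.31 CPM under hypoxia and 45.52, 43.4 and 40.97 under normoxia (log2-fold change -0.72, SE 0.078, edgeR adjusted p = 1.93e-07). ATG16L2 had 26.33, 25.76 and 24.84 CPM under hypoxia and 14.35, 9.68 and 12.74 under normoxia (log2-fold change 1.06, SE 0.11, edgeR adjusted p = 1.69e-07). Neither gene overlapped between the conditions. Per length, ATG16L1 remained the more abundant form in both, with an FPKM ratio to ATG16L2 of 2.61 ± 0.324 under hypoxia and 9.15 ± 1.88 under normoxia.

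Their partners ATG5 and ATG12 moved less. ATG5 had 39.07, 41.75 and 38.77 CPM under hypoxia and 38.62, 39.39 and 37.72 under normoxia, which overlap (log2-fold change 0.048, SE 0.064, edgeR adjusted p = 0.496). ATG12 rose by 0.34 (SE 0.064, edgeR adjusted p = 0.000111), from 40.6 ± 0.756 to 51.4 ± 3.13 CPM. ATG10, the conjugating enzyme of ATG12, did not pass (0.095, edgeR adjusted p = 0.595).

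Of the 4 ATG4 proteases, 3 fell, where 38.5% of all tested genes did. ATG4D had 22.83, 21.08 and 22.53 CPM under hypoxia and 36.09, 33.1 and 31.98 under normoxia, all lower under hypoxia (log2-fold change -0.61, SE 0.077, edgeR adjusted p = 1.2e-06). ATG4A had 11.66, 11.78 and 13.75 CPM under hypoxia and 19.75, 16.98 and 17.85 under normoxia, also without overlap (log2-fold change -0.56, SE 0.1, edgeR adjusted p = 8.94e-05). ATG4C fell by 0.42 (SE 0.12, edgeR adjusted p = 0.00544), while ATG4B, the most active protease of the family, did not pass (64.3 ± 3.86 against 64.8 ± 0.964 CPM, edgeR adjusted p = 0.886). ATG7, ATG10, ATG12, ATG16L2, ATG4B and ATG4D each share exonic bases with a more abundant gene. The neighbour moved the same way for ATG4D (KRI1, 341 bases, log2-fold change -1.22) and for ATG12 (AP3S1, 378 bases, 0.31), so that the decrease of ATG4D and the increase of ATG12 are uncertain. It moved the opposite way for ATG7 (VGLL4, 1596 bases, 0.54). The neighbour's change was -0.87 for ATG4B (THAP4, 237 bases) and -0.09 for ATG16L2 (FCHSD2, 680 bases). For ATG10 it was 0.02 (RPS23, 374 bases), with RPS23 at 897.5 CPM on average beside 4.78 under hypoxia and 4.47 under normoxia for ATG10. That ATG4B and ATG10 did not pass is therefore uncertain as well.

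The ATG8 proteins fall into a GABARAP branch and an LC3 branch, of which the rule took GABARAP, GABARAPL2 and MAP1LC3A. GABARAP had 133.0, 137.5 and 143.2 CPM under hypoxia and 72.93, 74.23 and 77.27 under normoxia. Every hypoxic library was higher (log2-fold change 0.88, SE 0.054, edgeR adjusted p = 1.09e-10), and per length GABARAP was first of the 42 genes in both conditions, at 106 ± 3.74 and 55.8 ± 1.81 FPKM. GABARAPL2 had 48.27, 46.57 and 49.4 CPM under hypoxia and 35.34, 39.28 and 37.01 under normoxia, without overlap (log2-fold change 0.37, SE 0.064, edgeR adjusted p = 4.74e-05). MAP1LC3A (LC3A) was barely present, with 21, 14 and 10 counts under hypoxia and 20, 9 and 4 under normoxia. A change was not detectable at these counts (edgeR adjusted p = 0.479).

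With MAP1LC3B, MAP1LC3C and GABARAPL1 added, the 6 genes summed to 206 ± 4.62 FPKM under hypoxia and 124 ± 1.57 under normoxia (SD, n = 3), 1.66 times as much. MAP1LC3B2, at 2.08 ± 0.425 FPKM under hypoxia and 1.69 ± 0.545 under normoxia, was left out of the sum and the shares. The share of GABARAP was 51.7% ± 0.98 under hypoxia and 44.9% ± 0.93 under normoxia, and that of GABARAPL1 7.51% ± 0.28 and 5.95% ± 0.093. The shares of GABARAPL2 (24.4% ± 0.42 and 30.2% ± 1.1) and MAP1LC3B (16.2% ± 0.43 and 18.7% ± 0.64) were lower under hypoxia, although MAP1LC3B itself rose by 0.48 (SE 0.059, edgeR adjusted p = 9.79e-07). For these 4 genes the libraries of the conditions did not overlap (two-sided exact permutation p = 0.1, 0.15 adjusted over 6 genes), and 0.1 is the smallest p that 3 against 3 libraries allow. MAP1LC3A held 0.174% ± 0.08 and 0.201% ± 0.13 (exact permutation p = 0.7), and MAP1LC3C was at 0 in 4 of the 6 libraries.

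**Figure D3:**
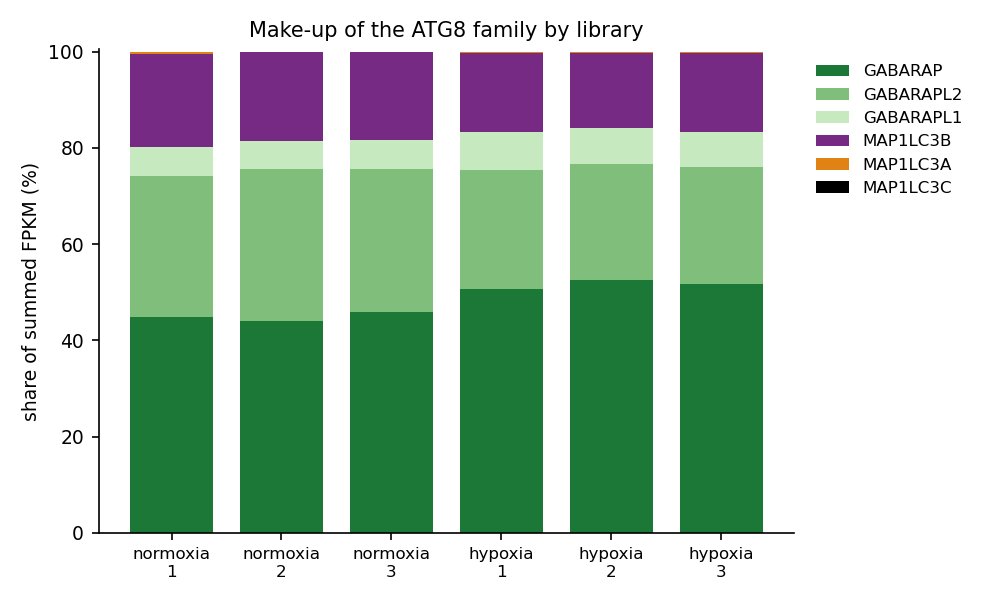
Share of each of 6 ATG8 genes, without MAP1LC3B2, in their summed FPKM (y axis, percent) in every library. GABARAP fills 44.0% to 45.9% of the sum in the normoxic libraries and 50.6% to 52.6% in the hypoxic ones, while GABARAPL2 and MAP1LC3B fill less of it under hypoxia.

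The cargo receptors bind marked cargo and ATG8 proteins at once, and all 3 rose, where 39.2% of all tested genes did. NBR1 had 179.2, 181.6 and 184.9 CPM under hypoxia and 93.22, 89.29 and 104.8 under normoxia. The hypoxic libraries were nearly alike and all above the normoxic ones (log2-fold change 0.93, SE 0.06, edgeR adjusted p = 2.31e-10). CALCOCO2 (NDP52), a receptor for bacteria and mitochondria, rose by 0.63 (SE 0.063, edgeR adjusted p = 7.07e-08), and TAX1BP1 by 0.49 (SE 0.055, edgeR adjusted p = 3.06e-07). Per length, TAX1BP1 was second to GABARAP in both conditions, at 70.6 ± 3.5 and 48.7 ± 2.72 FPKM.

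Both genes of the last step rose as well, beside the same 39.2% of all tested genes. STX17, the SNARE protein of the finished autophagosome, rose by 0.65 (SE 0.087, edgeR adjusted p = 2.74e-06), from 16.6 ± 1.12 to 26.0 ± 1.72 CPM. EPG5, which tethers autophagosomes to lysosomes, rose by 0.5 (SE 0.061, edgeR adjusted p = 7.79e-07), from 34.5 ± 0.465 to 48.9 ± 1.38 CPM.

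TFEB and TFE3 are related transcription factors that switch on autophagy and lysosomal genes. TFEB had 4.061, 5.081 and 4.592 CPM under hypoxia and 1.37, 1.643 and 2.265 under normoxia. It was higher in every hypoxic library (log2-fold change 1.39, SE 0.22, edgeR adjusted p = 1.65e-05). TFE3 had 68.22, 61.54 and 65.61 CPM under hypoxia and 88.3, 87.23 and 79.6 under normoxia, and was lower in every one (log2-fold change -0.39, SE 0.061, edgeR adjusted p = 1.71e-05). TFE3 still exceeded TFEB per length, with a TFEB to TFE3 ratio in FPKM of 0.0647 ± 0.0106 under hypoxia and 0.0192 ± 0.00615 under normoxia.

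**Figure D4:**
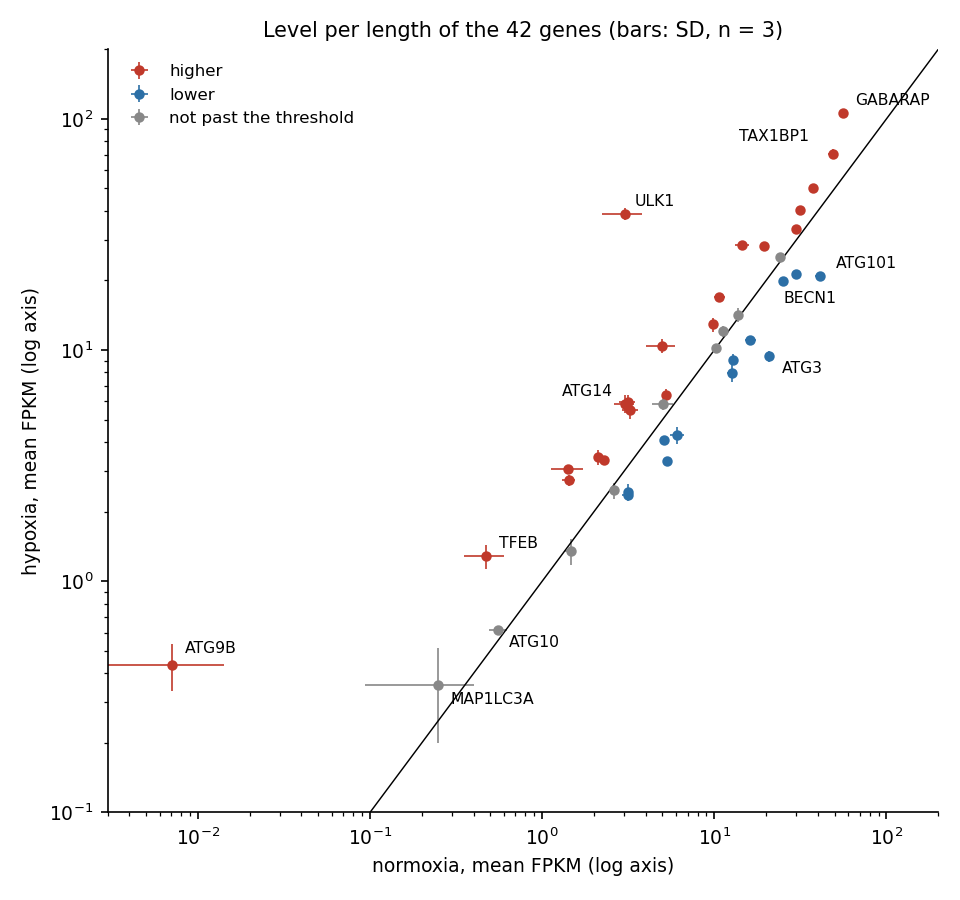
Mean FPKM of the 42 genes under normoxia (x axis) and hypoxia (y axis), both on log axes, with SD (n = 3; red: higher, blue: lower, grey: not past the threshold; the line marks equal levels). ULK1 moves from 3.01 to 38.7 FPKM, GABARAP has the highest level in both conditions, and ATG9B, whose error bar runs off the axis, is the lowest in normoxia at 0.00707 FPKM.

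Levels per length spanned a wide range. The median of the 42 genes was 5.71 FPKM under normoxia and 8.5 under hypoxia. Under normoxia 4 genes lay under 1 FPKM (ATG10, TFEB, MAP1LC3A and ATG9B) and 10 above 20, and under hypoxia 3 and 11. The lead of GABARAP over TAX1BP1 exceeded the spread in both conditions. By contrast, RB1CC1, ATG4C and UVRAG (3.14 FPKM each) with ULK1 and ATG14 (3.01 each) lay within each other's spread under normoxia. Under hypoxia the same genes ran from 2.37 FPKM for UVRAG to 38.7 for ULK1.

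Paralogs were then set against each other. The log2 ratio of counts within a library, which does not depend on library size, was compared for 10 pairs. For ATG9A to ATG9B the separation was built in, since ATG9B was at the floor under normoxia and passed the filter only through its hypoxic counts, and nothing is read from it. In 8 of the other 9 pairs the conditions did not overlap, where single genes did not overlap in 80.5% of all those tested. The ratio of ULK1 to ULK2 differed most among pairs with measurable counts on both sides, at 4.06 ± 0.13 under hypoxia and 0.21 ± 0.32 under normoxia (difference 3.85, SE 0.2). The ratio of ATG16L1 to ATG16L2 was 0.04 ± 0.17 and 1.84 ± 0.28 (difference -1.80, SE 0.19), and that of TFEB to TFE3 was -3.83 ± 0.24 and -5.61 ± 0.44 (difference 1.78, SE 0.29).

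Smaller differences were seen for the WIPI, ATG4, GABARAP and ATG2 pairs. The difference between conditions was 0.76 (SE 0.12) for WIPI1 to WIPI2, 0.72 (SE 0.2) for WDR45 to WDR45B, 0.54 (SE 0.14) for ATG4B to ATG4A, 0.51 (SE 0.054) for GABARAP to GABARAPL2 and 0.31 (SE 0.12) for ATG2A to ATG2B. For each of these 8 pairs the two-sided exact permutation p was 0.1, the smallest that 3 against 3 libraries allow, or 0.111 adjusted over the 10 pairs. ATG4D to ATG4C overlapped (difference -0.19, SE 0.095, exact permutation p = 0.2).

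**Figure D5:**
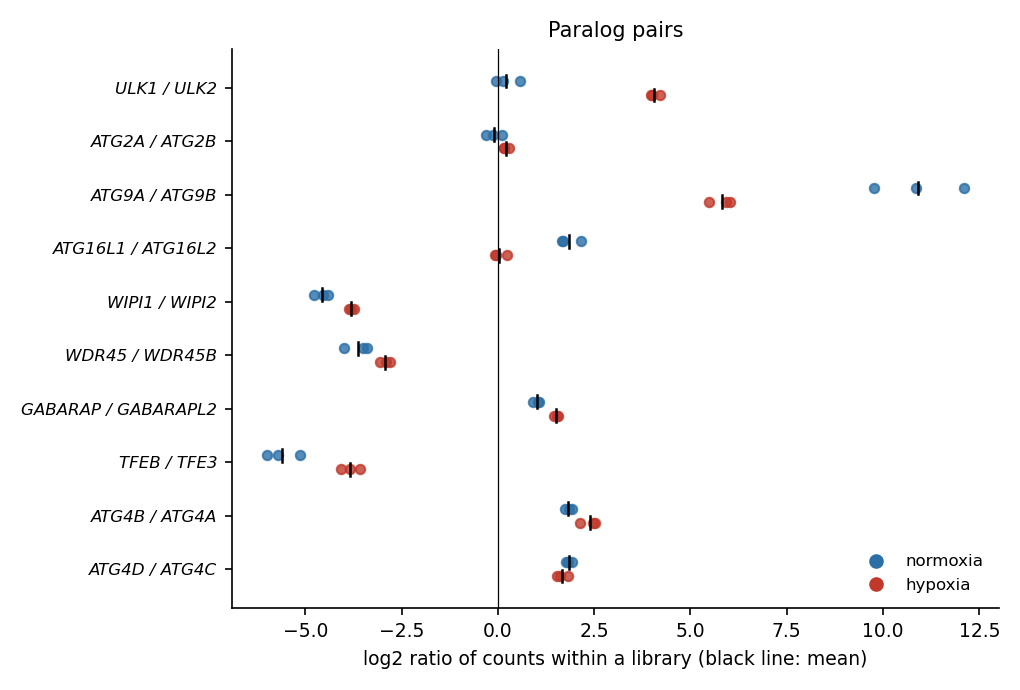
Log2 ratio of counts (x axis, with 0.5 added to each count) of 10 paralog pairs within each library under normoxia (blue) and hypoxia (red), with the mean of 3 libraries as a black line. ULK1 to ULK2 runs from 0.21 to 4.06, ATG16L1 to ATG16L2 from 1.84 to 0.04, and the normoxic points of ATG9A to ATG9B rest on 0 to 2 counts of ATG9B.

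Other genes of the pathway were described from 4 lists, of which 102 genes were tested, 47 (46.1%) higher and 35 (34.3%) lower, near the 39.2% and 38.5% of all tested genes. Among 28 further autophagy genes, 16 (57.1%) rose and 7 (25.0%) fell, with a median log2-fold change of 0.45. The largest increases were those of TP53INP1 (3.45, SE 0.12) and TP53INP2 (2.51, SE 0.11), which bind ATG8 proteins, and of the mitophagy receptor BNIP3L (2.62, SE 0.12). BNIP3 rose by 1.74 (SE 0.084), the receptor OPTN by 1.06 (SE 0.065) and GABARAPL1 by 1.02 (SE 0.074). SQSTM1 (p62), the best known receptor, fell by 0.21 (466 ± 9.4 against 540 ± 21.6 CPM, edgeR adjusted p = 0.000882), unlike NBR1, CALCOCO2 and TAX1BP1. The largest decreases were those of BCL2 (-1.18, SE 0.24), which holds Beclin 1, and of the mitophagy receptors FUNDC1 (-0.79, SE 0.13) and PHB2 (-0.38, SE 0.054).

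Of 17 tested upstream kinases and their regulators, 7 (41.2%) rose and 8 (47.1%) fell, with a median of -0.036, beside 39.2% and 38.5% of all tested genes. DDIT4 (REDD1), an inhibitor of mTORC1 signalling, rose by 3.74 (SE 0.13), from 150 ± 43.0 to 2000 ± 58.5 CPM. PRKAB2 (0.77, SE 0.078), a subunit of AMP-activated kinase, and FNIP1 (0.76, SE 0.074), which binds that kinase, rose less. The mTORC1 genes MTOR (-0.59, SE 0.053), AKT1S1 (-0.55, SE 0.058) and MLST8 (-0.52, SE 0.06) made the largest decreases; MTOR had 119 ± 3.95 CPM under hypoxia and 179 ± 6.48 under normoxia.

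Of 14 tested genes of autophagosome-lysosome fusion, 3 (21.4%) rose and 7 (50.0%) fell, beside 39.2% and 38.5% of all tested genes, with a median of -0.1. With at least 10 counts in every library, 5 of 13 rose and 6 fell. That filter moved the log2-fold changes of all genes in both fits up by a median of 0.077. PLEKHM1, an adaptor (0.79, SE 0.075), and the HOPS subunits VPS41 (0.5, SE 0.051) and VPS39 (0.24, SE 0.064) rose, whereas VPS18 (-0.94, SE 0.073), shared by HOPS and the related CORVET complex, and TGFBRAP1 of CORVET (-1.51, SE 0.061) fell. The call of the SNARE gene VAMP7 (-2.69, edgeR adjusted p = 0.00301) rested on normoxia replicate 2, with 146 counts beside 20 and 15 in the other normoxic libraries, and was lost without it (-0.77, edgeR adjusted p = 0.203), which left 6 genes lower.

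Of 43 lysosomal genes, 21 (48.8%) rose and 13 (30.2%) fell, beside the same 39.2% and 38.5%, with a median of 0.19. The cathepsins CTSF (2.59, SE 0.24), CTSD (1.58, SE 0.076) and CTSH (1.07, SE 0.059) made the largest increases. GLA, the galactosidase (-1.65, SE 0.077), the cathepsin CTSC (-1.41, SE 0.064) and ATP6V0B of the proton pump (-0.93, SE 0.072) made the largest decreases. The membrane proteins LAMP1 and LAMP2 rose by 0.39 (SE 0.051) and 0.62 (SE 0.052).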

How the data were processed

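RNA libraries of the cells were prepared with an mRNA sequencing kit, per the labels. The authors deposited raw counts per gene, whole numbers without normalization, and FPKM for the same genes. The deposited FPKM followed from the counts, a gene length and the library total for 21775 of 21776 genes, all autophagy genes included. The aligner, counting tool, annotation and use of strand are not given in the sources used here. The submitters' processing notes name the mouse builds GRCm38 and mm10, although the gene symbols are human, so no coordinates were taken from the files.

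The counts were tested in R 4.3.3 with edgeR 4.0.16 (glmQLFit and glmQLFTest, TMM factors and filterByExpr, with a design of condition alone), with Benjamini-Hochberg adjustment over all 14255 tested genes at 0.05. Standard errors came from the F statistic, as the log2-fold change over its square root. CPM used the TMM-adjusted totals, and the common biological coefficient of variation was 0.0685. Standard errors cover counting error as well as the spread among libraries. A level of 3 counts or fewer in every library of a condition was taken as unmeasurable. Pairs of replicates differed by more than sampling noise (chi-square per gene 5.11 to 11.5). Ratios and shares were compared by two-sided exact permutation tests over the 6 libraries. The count tests were tried on simulated data first.

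Values in every library are given for the autophagy genes past the threshold with the 8 greatest increases and the 8 greatest decreases, and for the ATG8 genes, TFEB, TFE3, BECN1 and ATG5. Of each further list, the 3 largest increases and 3 largest decreases past the threshold are named, with MAP1LC3B, GABARAPL1, SQSTM1, OPTN, BNIP3, BNIP3L, MTOR, LAMP1 and LAMP2. Library values of UVRAG and NDRG1 were added after they had been seen. The genes and lists were chosen with earlier results of these data known.

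The alternatives tried were the Wald test of DESeq2 1.42.0, its size factors within edgeR, a fit of the unfiltered table, a minimum of 10 counts per gene in all libraries, a replicate block, omission of single libraries and a minimum log2-fold change of 1 in size. The FPKM were tested by limma 3.58.1 on log2(FPKM + 1), keeping genes that averaged 1 FPKM or more, then with a pseudocount of 0.1 and then without that filter. Leaving out genes that share exons with a more abundant gene (GENCODE v29) was added after the data had been seen.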

Additional observations from a re-analysis of the deposited data

How the results depend on the processing

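Of the 33 autophagy genes past the threshold, 32 kept direction and call in every alternative that tested them, apart from the added fold threshold. WIPI2 was the exception, at 0.086 without a filter and 0.13 with the replicate block. Over these alternatives 19 to 22 genes were higher and 12 to 13 lower. The replicate block gave 20 higher and 12 lower. Same-numbered libraries did not deviate together (r = 0.0175, -0.069 and 0.00122), so that no pairing by number was seen. With 3 libraries per condition, this cannot show whether any were set up together. Without the 8 genes that share exons with a more abundant gene, 19 of the remaining 34 were higher and 8 lower, beside 21 and 12 of all 42. Of all tested genes, 39.2% were higher and 38.5% lower.

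A required log2-fold change of 1 in size left 4338 of all genes, 5 autophagy genes higher and 2 lower, 8 and 1 of the further autophagy genes, 1 and 0 of the upstream kinases, 0 and 2 of the fusion genes and 4 and 2 of the lysosomal genes. With at least 10 counts in every library, 5 fusion genes were higher and 6 lower, and all genes in both fits moved up by a median of 0.077. The median of the autophagy genes was 0.15 without a filter (0.2 over all genes), 0.22 with at least 10 counts, 0.17 on log2(FPKM + 1) with or without its filter, and 0.13 to 0.21 with each library left out.

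Values near 0 changed sign. ATG13 was at 0.031 with at least 10 counts and at 0.00039, 0.00042 and 0.00039 in the 3 FPKM fits. ATG4B was at 0.068, 0.034, 0.036 and 0.034 in the same fits and at -0.05 to 0.033 with each library left out. VMP1 was at -0.027 without a filter and at -0.032 to 0.044 with each library left out. With a library left out, the difference in the share of MAP1LC3A ran from -0.0869 to 0.0394 percentage points and that of MAP1LC3C from -0.00556 to 0.0371. The ratio of ATG9A to ATG9B was at 0.01 on log2(FPKM + 1), where the pseudocount exceeds the level of ATG9B. Without the ATG8 genes outside the rule, the share of GABARAP differed by 8.16 and that of GABARAPL2 by -8.12 percentage points. ATG2A passed with at least 10 counts (0.23) and without normoxia replicate 3 (0.26), and ATG2B without a filter (-0.18) and without hypoxia replicate 2 (-0.20). The fitted change of ATG9B was 6.63 without normoxia replicate 3. The causes were not tested. ATG9B and MAP1LC3A had low counts, and their changes were imprecise. With each library left out, the change of MAP1LC3A ran from 0.02 to 0.99.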

Other observations

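The lysosomal list was divided by function after the values had been seen. Of the 15 genes of the proton pump, which acidifies the lysosome, 2 rose and 9 fell, with a median log2-fold change of -0.30. The 2 that rose were ATP6AP1 and ATP6AP2, so that the counts depend on their place in the division. Of the other 28 lysosomal genes, mostly enzymes and membrane proteins, 19 rose and 4 fell, with a median of 0.44. Beside these, 39.2% of all tested genes were higher and 38.5% lower, and the difference between the divisions was not tested.

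The 100 most abundant genes of each library took 24.88%, 24.71% and 25.3% of the counts under hypoxia and 21.08%, 22.35% and 22.01% under normoxia, so that the conditions did not overlap in this share. TMM gave the hypoxic libraries factors of 1.012, 1.032 and 1.006 and the normoxic ones 0.9986, 0.9658 and 0.9871. The part of this in the autophagy results was not tested.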
